A study of Mus with 8 samples.

Results

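Uncoupling proteins are carriers of the inner mitochondrial membrane. UCP1, which defines brown fat, lets protons flow back into the matrix when fatty acids activate it, so that respiration yields heat instead of ATP. UCP2 is found in many tissues and is known from immune cells, and UCP3 is found in skeletal muscle and brown fat, where its transcript responds to fatty acids and PPAR transcription factors. The members described here are the 3 genes Ucp1, Ucp2 and Ucp3, taken from the log2 values through every probe set annotated with a single one of them. Of the 30723 genes with a value, 2 were members, Ucp1 and Ucp3, each with 1 probe set (TC0800000919.mm.1 and TC0700001408.mm.1). Ucp2 was not analysed here, because the platform annotation used here pairs no probe set with it.

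RNA of interscapular brown fat of C57BL/6 mice was measured on 8 arrays, 1 per mouse: 4 mice labelled HILPDA KO and 4 labelled wild type. Hilpda encodes a lipid droplet protein that is known to restrain adipose triglyceride lipase, which releases the fatty acids that activate UCP1. The labels call every mouse female and give no age, no treatment and no driver or cell type for the deletion. The arrays form 2 sets that were evidently not brought to a common distribution: replicates 1 and 2 of both genotypes (set 1), with a median over named genes of 3.92 to 3.99 and a highest value of 19.93, and replicates 3 and 4 of both genotypes (set 2), with a median of 4.92 to 4.96 and highest values of 19.68 to 19.77. Differences are therefore given within a set, or as the average of the differences within the sets.

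Some values go against the labels or point to other tissue. Hilpda itself was not lower in both sets in the arrays labelled KO, with a difference of 0.09 in set 1 and -0.40 in set 2, so directions below refer to the labels. In wild type it read 4.37 and 4.28 in set 1, where the 95th percentile of olfactory receptor genes was 3.873 and 3.795. In set 2 it read 6.00 and 5.92 there, against 4.79 and 4.74. A decrease thus had little room in set 1. In set 2 there was room for a larger decrease than the -0.40 seen, and both KO arrays still read above the percentile of their own array. Whether the probe set of Hilpda covers deleted sequence is not stated in the labels. On the 8 arrays Uty, a Y-linked gene, read 9.31 to 10.93 and Eif2s3y, another, 8.53 to 11.01, and Xist read 3.49 to 4.10, against an olfactory receptor median, taken as a floor, of 3.26 to 3.85. On each of the 8 arrays all 3 of these genes thus stood opposite to the sex that the labels give. All 16 measured brown adipocyte markers stood above the 95th percentile of olfactory receptor genes on every array. Liver markers did so for 17 to 18 of 18 genes on the arrays of set 1 and for 4 to 5 of 18 in set 2.

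Ucp1 read at or next to the highest value on all 8 arrays, so that its level could not be compared between KO and wild type. In set 1 KO replicate 1 read 19.93, and KO replicate 2 and both wild type arrays read 19.87. The first of these is the array maximum, shared by 178 probe sets of that array, and the other 3 values lie 0.06 below the maximum. In set 2 KO replicates 3 and 4 had Ucp1 values of 19.77 and 19.68, against 19.73 and 19.74 for their wild type counterparts, and each of these values is the array maximum, which 50 to 73 probe sets share. The KO minus wild type difference of Ucp1 in set 2, -0.01, is thus the difference between array maxima. In set 1 the difference of 0.03 comes from KO replicate 1 alone, since the other 3 arrays gave the same value, and it was 0 without that array.

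The limit on Ucp1 was shared by other abundant transcripts. Between 47 and 109 named genes, or 0.153% to 0.355% of all, lay within 0.1 of the maximum on an array. Among those with the highest mean in set 1 were Cat, which encodes catalase, and Gapdh, and in set 2 Cat and Car3, the carbonic anhydrase abundant in adipocytes. The average difference of Ucp1 in limma was 0.01 (SE 0.06, adjusted p = 0.991). Its SE combines the spread of values at the ceiling with that of all genes, through limma. It does not bound a change in Ucp1 transcript.

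**Figure D1:**
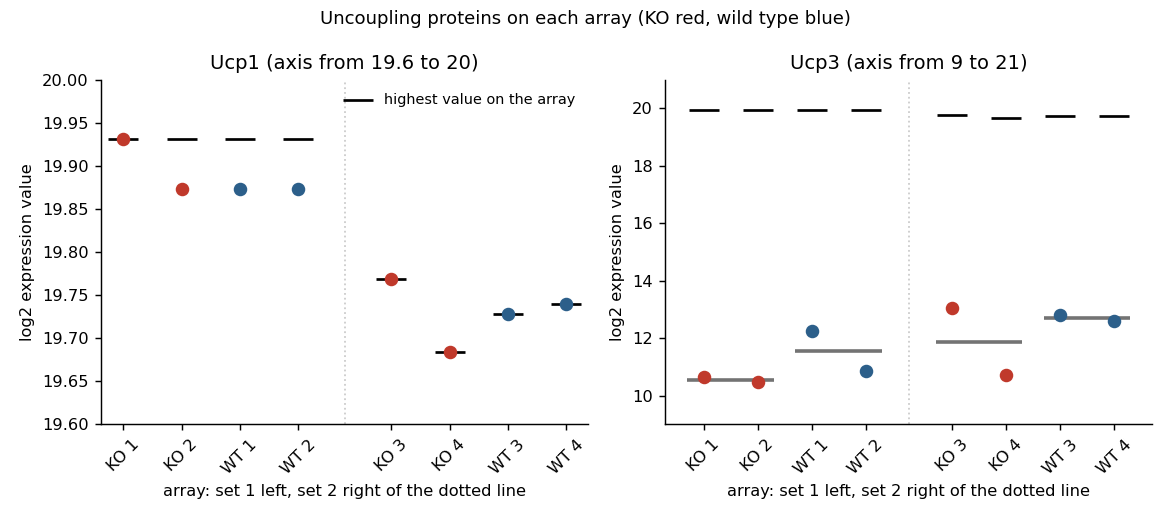
Log2 values of Ucp1 (left) and Ucp3 (right) on each array, with KO arrays in red, wild type arrays in blue, the highest value of each array as a black dash and, for Ucp3, the mean of each set and genotype as a grey bar. Ucp1 lies on the array maximum on 5 arrays and 0.06 below it on 3, whereas Ucp3 lies 6.72 to 9.48 below it and splits both KO replicates 3 and 4 and wild type replicates 1 and 2.

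Ucp3 was far from the ceiling and varied widely between mice of the same genotype. In set 1 KO replicates 1 and 2 had Ucp3 values of 10.63 and 10.45, against 12.25 and 10.85 for wild type replicates 1 and 2. The KO arrays were both below the wild type arrays there, as they were for 19.4% of all genes. In set 2 KO replicates 3 and 4 had values of 13.05 and 10.70, against 12.79 and 12.59 for wild type replicates 3 and 4. The groups overlap there, because KO replicate 3 had the highest value of all 8 arrays and KO replicate 4 the lowest of its set. The distance of Ucp3 from the array maximum was 9.30, 9.48, 6.72 and 8.98 in KO replicates 1 to 4, against 7.68, 9.08, 6.94 and 7.15 in the wild type replicates in the same order. Every value was at least 5.86 above the 95th percentile of olfactory receptor genes.

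Whether loss of Hilpda goes with another level of Ucp3 transcript was the question of this comparison, and the difference was not larger than the spread between mice. The mean of Ucp3 was 10.54 in KO and 11.55 in wild type in set 1, a difference of -1.004 (SE 0.75), and 11.87 and 12.69 in set 2, a difference of -0.81 (SE 0.75). The average was -0.91 (SE 0.53, 95% interval -2.16 to 0.34), which corresponds to 0.533 times the wild type level with an interval of 0.223 to 1.27. In limma with Benjamini-Hochberg adjustment the adjusted p was 0.782 for the average, 0.892 for set 1 and 0.691 for set 2, and 0.968 for the difference between the sets (0.19, SE 1.06). Over all genes the average comparison and that within set 1 called 0 of 30723 (0%), with 2188 and 2377 genes at an unadjusted p under 0.05. The comparison within set 2 called 1 (0.00325%). That gene, named after its values were seen, was Dbp, a clock-controlled transcription factor (-2.59, SE 0.16, adjusted p = 0.0259). The two-sided exact permutation p for Ucp3 was 0.333 over the 36 arrangements within the sets, of which the smallest possible is 0.0556.

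Single arrays set the size of the Ucp3 difference. Within a genotype and set, the 2 mice were 2.35 apart (KO replicates 3 and 4) and 1.40 apart (wild type replicates 1 and 2), and 0.18 and 0.20 apart in the remaining KO and wild type arrays. Without KO replicate 4 the average was -0.32 and the difference within set 2 was 0.36. Without KO replicate 3 these were -1.50 and -1.99. Without wild type replicate 1 the average was -0.56 and the difference within set 1 was -0.30, and without wild type replicate 2 the latter was -1.70. The average stayed below 0 with both other normalizations and with each array left out, the settings that could move it. None of the 16 alternative settings gave an adjusted p under 0.05 for Ucp3.

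Skeletal muscle, which lies near this depot, also expresses Ucp3, and the arrays differed in muscle transcript. The mean of 30 muscle markers was 6.10, 8.49, 5.88 and 9.93 in KO replicates 1 to 4, against 7.62, 7.14, 10.31 and 8.84 in the wild type replicates in the same order. KO replicate 3, with the highest Ucp3, had the lowest muscle mean, and 23 of the 30 markers stood above the olfactory receptor percentile on that array against 28 to 30 on the others. KO replicate 4, with a low Ucp3, had the second highest. After each set mean was removed, the muscle mean and Ucp3 correlated at -0.34 over the 8 arrays. The part of muscle transcript in the Ucp3 values was not tested. The median difference of these markers between KO and wild type was -0.05 in set 1 and -1.25 in set 2, and 0 of 30 were called. The median of the average, -0.80, was 0.12 without KO replicate 3 and -1.79 without KO replicate 4.

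Liver transcript differed between the arrays of set 1. The mean of 18 liver markers was 11.44 and 8.38 in KO replicates 1 and 2, against 8.10 and 6.32 in their wild type counterparts, and 4.91 to 5.31 in set 2. The median of the average over the liver markers, 1.56, was 0.63 without KO replicate 1 and 2.44 without KO replicate 2. Wild type replicate 1, with the highest Ucp3 of set 1, and KO replicate 2, with the lowest, had similar liver means. KO replicate 1, with the highest liver mean, had a Ucp3 value of 10.63. After each set mean was removed, the liver mean and Ucp3 correlated at -0.19 over the 8 arrays. The part of liver transcript in the set 1 values of Ucp3 was not tested. Macrophage and lymphocyte markers had means of 4.97 and 4.76 in KO against 4.87 and 4.72 in wild type in set 1, and of 6.21 and 6.32 against 6.08 and 6.19 in set 2 (24 genes, of which Cd4, Cd8a, Cd79a and Ms4a1 were never above the percentile). Of the 24 genes 12 were higher in KO in both sets and 0 lower in both, against 7311 and 5865 of all 30723 genes, with medians of 0.07 and 0.06 in the sets and 0 called. In whole tissue, fewer cells of a type and less RNA per cell cannot be told apart.

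**Figure D2:**
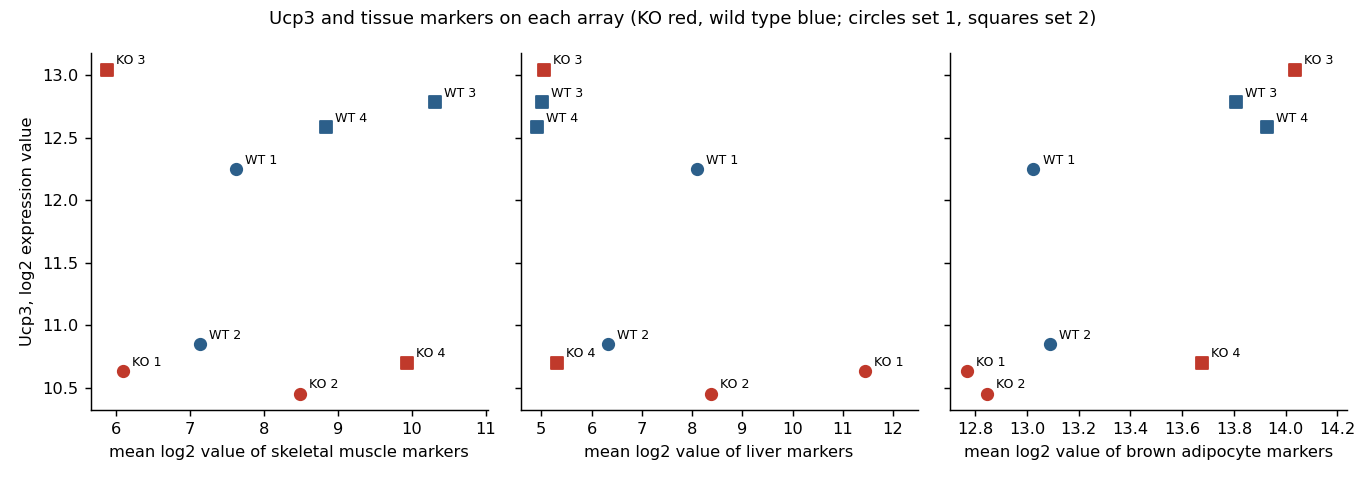
Ucp3 log2 value against the mean log2 value of skeletal muscle, liver and brown adipocyte markers on each array, with KO in red, wild type in blue, set 1 as circles and set 2 as squares. KO replicate 3 combines the highest Ucp3 (13.05) with the lowest muscle mean (5.88), and KO replicate 4 combines 10.70 with a muscle mean of 9.93.

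Brown adipocyte markers were set beside Ucp3 in the same way. With set means removed, the mean of the 16 markers and Ucp3 correlated at 0.71 over the 8 arrays. Dio2, 1 of the 16, weighs heavily in that mean. Its difference in set 1 was -4.63, against a median of 0.0154 over the markers. The correlation without Dio2 was not computed. Single markers did not all follow that mean. Among those named here the r with Ucp3 was -0.70 for Zic1, 0.20 for Otop1, 0.28 for Cox7a1, 0.31 for Slc27a2 and 0.48 for Dio2. The mean of the 16 markers was 12.77, 12.84, 14.04 and 13.68 in KO replicates 1 to 4, against 13.03, 13.09, 13.81 and 13.93 in the wild type replicates in the same order. Of the 16 markers 12 had a lower average in KO, against 14560 of all 30723 genes. Their median was -0.06 against 0.01 over all genes, and 0 were called in the average. Within the sets the medians were 0.0154 and 0.00028, and 2 markers were lower and 3 higher in both, against 5865 and 7311 of all genes. The marker Zic1, a transcription factor of the brown fat lineage, had an average difference of 0.43 (SE 0.13, adjusted p = 0.664) and Cox7a1, a subunit of cytochrome c oxidase, -0.17 (SE 0.08, adjusted p = 0.723). Slc27a2, a fatty acid transporter and acyl-CoA synthetase, stood at 0.22 (SE 0.12, adjusted p = 0.779). Otop1, a proton channel of brown fat named after its values were seen, was the 1 marker of 16 whose difference passed between the sets, as that of 0.498% of all genes did (1.45 in set 1 and -1.95 in set 2, adjusted p = 0.0468 in limma, 0.022 to 0.158 over 13 other settings, of which 2 kept the call).

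Other genes were ranked by the likeness of their pattern to that of Ucp3, as a description. Among 5780 named genes with a mean of at least 7, the highest Pearson r over the 8 arrays with set means removed belonged to Svep1, an extracellular matrix protein (0.97), Mfsd14b, a membrane transporter of the major facilitator superfamily (0.96), Kbtbd4, an adaptor of a ubiquitin ligase (0.96), Gpr108, a Golgi membrane protein (0.96), and Alg9, a mannosyltransferase of N-glycan assembly (0.96). Without KO replicate 4 and wild type replicate 1, the arrays farthest from the median of Ucp3, the r was 0.88 to 0.91. The average differences of these genes between KO and wild type were -0.31, -0.11, -0.23, -0.23 and -0.18. Lpl, lipoprotein lipase, which frees fatty acids from circulating triglyceride, had the highest r among the lists used here (0.93) and is named after its values were seen. It read 18.59, 18.65, 19.10 and 18.80 in KO replicates 1 to 4, against 18.74, 18.63, 19.00 and 19.01 in the wild type replicates in the same order, so that it too was lower in KO replicate 4 than in KO replicate 3. Pnpla2, the gene of adipose triglyceride lipase and 1 of those listed for fatty acid supply, went the other way, with an r of -0.96. It too is named after its values were seen, and those values moved little. Arrays of the same genotype and set lay at most 0.24 apart in Pnpla2, and KO replicates 1 and 2 both read 18.49. That r thus rests on small differences.

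**Figure D3:**
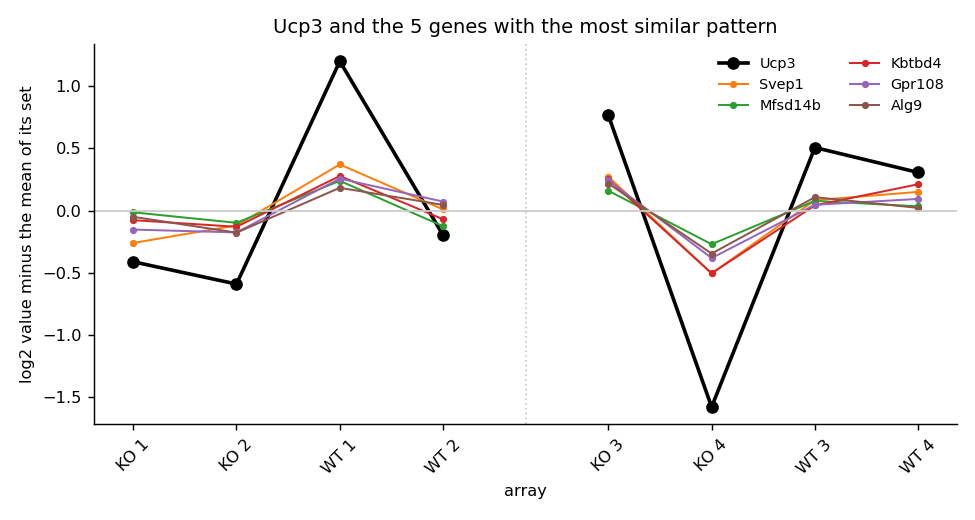
Log2 values of Ucp3 (black) and the 5 genes with the most similar pattern, each minus the mean of its set, on the 8 arrays. All 6 genes are highest in wild type replicate 1 within set 1, and highest in KO replicate 3 and lowest in KO replicate 4 within set 2.

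Carriers related to the uncoupling proteins were measured for 8 of 8 listed genes, and 0 were called in the average or within a set. Relatives known from brain and kidney are Slc25a14, also known as UCP5, Slc25a27, also known as UCP4, and Slc25a30. Slc25a14 read 3.86 to 5.33 and Slc25a27 4.58 to 5.99 over the 8 arrays, with average differences of 0.15 (SE 0.09) and 0.11 (SE 0.11). Slc25a14 lay close to the olfactory receptor percentile, and below it in KO replicate 2 (3.860 against 3.869), so that a decrease could hardly be seen. The adenine nucleotide carriers Slc25a4 and Slc25a5, which also conduct protons when fatty acids are present, read 13.91 to 14.67 and 17.32 to 17.59, with average differences of -0.10 (SE 0.06) and -0.08 (SE 0.08). Their 95% intervals were -0.25 to 0.06 and -0.26 to 0.11. Slc25a31, the adenine nucleotide carrier of testis, did not exceed the olfactory receptor percentile on any array. The dicarboxylate carrier Slc25a10 and the oxoglutarate carrier Slc25a11 stood at 0.15 (SE 0.18) and -0.18 (SE 0.12).

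Slc25a30 was the only one of these 8 carriers whose difference passed the test between the sets, where 153 of 30723 genes (0.498%) did. It read 7.31 and 7.16 in KO against 7.76 and 7.71 in wild type in set 1, and 8.64 and 8.60 in KO against 7.92 and 7.91 in wild type in set 2. The arrays labelled KO were thus lower in set 1, by 0.50 on the log2 scale, and higher in set 2, by 0.70, without overlap in either. In set 1 both KO arrays lay below both wild type arrays for 19.4% of all genes, and the share with the set 2 order was not computed. For Slc25a30 the difference between the sets was 1.21 (SE 0.14, adjusted p = 0.0406 in limma), and neither set passed alone (adjusted p = 0.32 and 0.0798). With 2 of 13 other settings the adjusted p stayed under 0.05, and over all 13 it was 0.022 to 0.158. For Ucp3 the same test gave 0.19 (SE 1.06), and it could not be read for Ucp1.

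**Figure D4:**
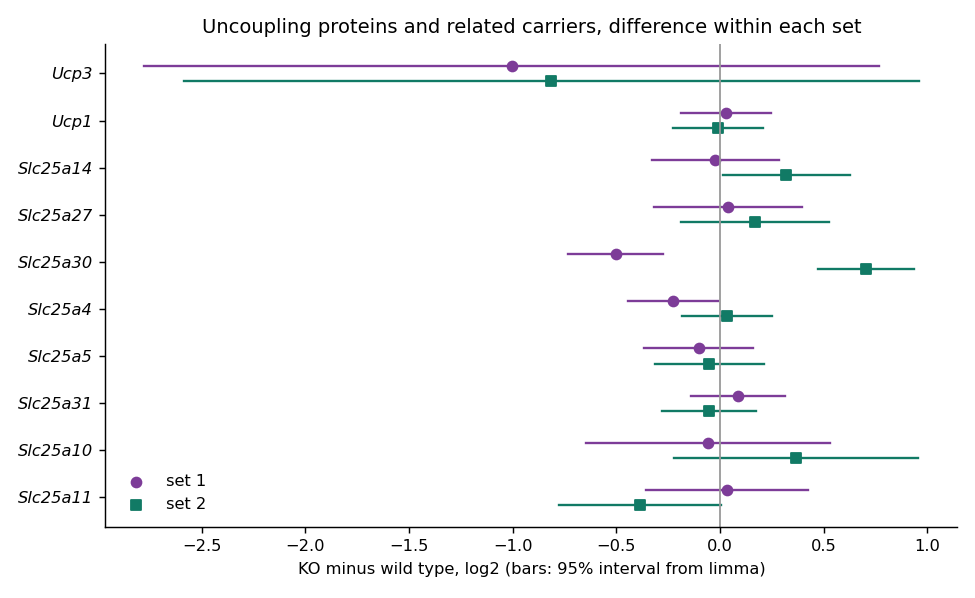
KO minus wild type difference on the log2 scale within set 1 (purple circles) and set 2 (green squares) for both uncoupling proteins and 8 related carriers, with 95% intervals from limma. The intervals of Ucp3 are the widest and include 0, and Slc25a30 lies at -0.50 in set 1 and 0.70 in set 2. Those of Ucp1 rest on values at the ceiling and do not bound a change.

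Of 30 listed transcriptional regulators of uncoupling protein genes 27 were measured, and 0 were called in the average. The average was lower in KO for 19 and higher for 8, against 14560 and 16163 of all 30723 genes. The median was -0.07 against 0.01 over all genes, and 9 were lower in both sets, against 5865 of all genes. Cebpa, a transcription factor of adipocyte differentiation, read 10.53, 10.37, 12.53 and 11.04 in KO replicates 1 to 4, against 12.18, 12.11, 12.62 and 12.46 in the wild type replicates in the same order. Both KO arrays of set 1 lay below the wild type arrays of that set, as they did for 19.4% of all genes. In set 2 KO replicate 3 lay between the wild type arrays and KO replicate 4 below them, so that the groups overlap. The average of Cebpa was -1.23 (SE 0.30, adjusted p = 0.653), and its r with Ucp3 was 0.83. Esrrg, an estrogen-related receptor that drives mitochondrial genes, had an average of -0.61 (SE 0.23, adjusted p = 0.683).

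Among the regulators, the KO minus wild type difference of Irf4 had opposite signs in the sets. Irf4, a partner of PGC-1α in thermogenic transcription, read 9.59 and 8.83 in KO against 11.10 and 10.40 in wild type in set 1, and 14.46 and 13.83 in KO against 8.25 and 10.10 in wild type in set 2. The differences were -1.54 (SE 0.60) and 4.97 (SE 0.60), neither called alone, and the difference between the sets passed (6.51, SE 0.85, adjusted p = 0.0459 in limma). Irf4 was the single regulator of 27 to do so, against 0.498% of all genes, and 2 of 13 other settings kept it under 0.05 (range 0.022 to 0.158). Its KO and wild type values did not overlap in either set, but lay in opposite order. In set 1 both KO arrays lay below both wild type arrays for 19.4% of all genes. The share with the opposite order in set 2, or with both, was not computed. Zbtb16, known as PLZF, read 10.58 and 12.10 in KO against 7.70 and 9.26 in wild type in set 1. The difference was 2.86 in set 1 and -0.16 in set 2 (SE 0.68 each). The difference between the sets did not pass (-3.02, SE 0.96, adjusted p = 0.212 in limma).

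Upstream of Ucp1, adrenergic signalling acts through cAMP and protein kinase A, and the deiodinase Dio2 supplies thyroid hormone within the brown adipocyte. Of 18 genes listed for these steps 13 were measured, and 0 were called. The average was lower in KO for 11, against 14560 of all 30723 genes. Only 2 of the 13 were lower in both sets, against 5865 of all genes. Their median was 0.0053 in set 1 and -0.32 in set 2. Dio2 read 6.53 and 7.38 in KO against 12.01 and 11.15 in wild type in set 1, where the groups lay far apart, and 14.39 and 12.01 in KO against 10.28 and 12.09 in wild type in set 2, where they overlap. The differences were -4.63 and 2.02 (SE 0.88 each), and their difference missed the threshold (6.64, adjusted p = 0.0805). Gnas, the stimulatory G protein subunit, had differences of -0.09 in set 1 and -0.52 in set 2 (SE 0.13 each). Prkar2b and Prkaca, subunits of protein kinase A, had 0.0053 and 0.33 in set 1 and -0.67 and -1.08 in set 2 (SE 0.18 and 0.22). Mapk12, a p38 kinase, had 0.01 in set 1 and -0.47 in set 2 (SE 0.11 each). The adjusted p of the averages of these 4 genes ran from 0.653 to 0.694.

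**Figure D5:**
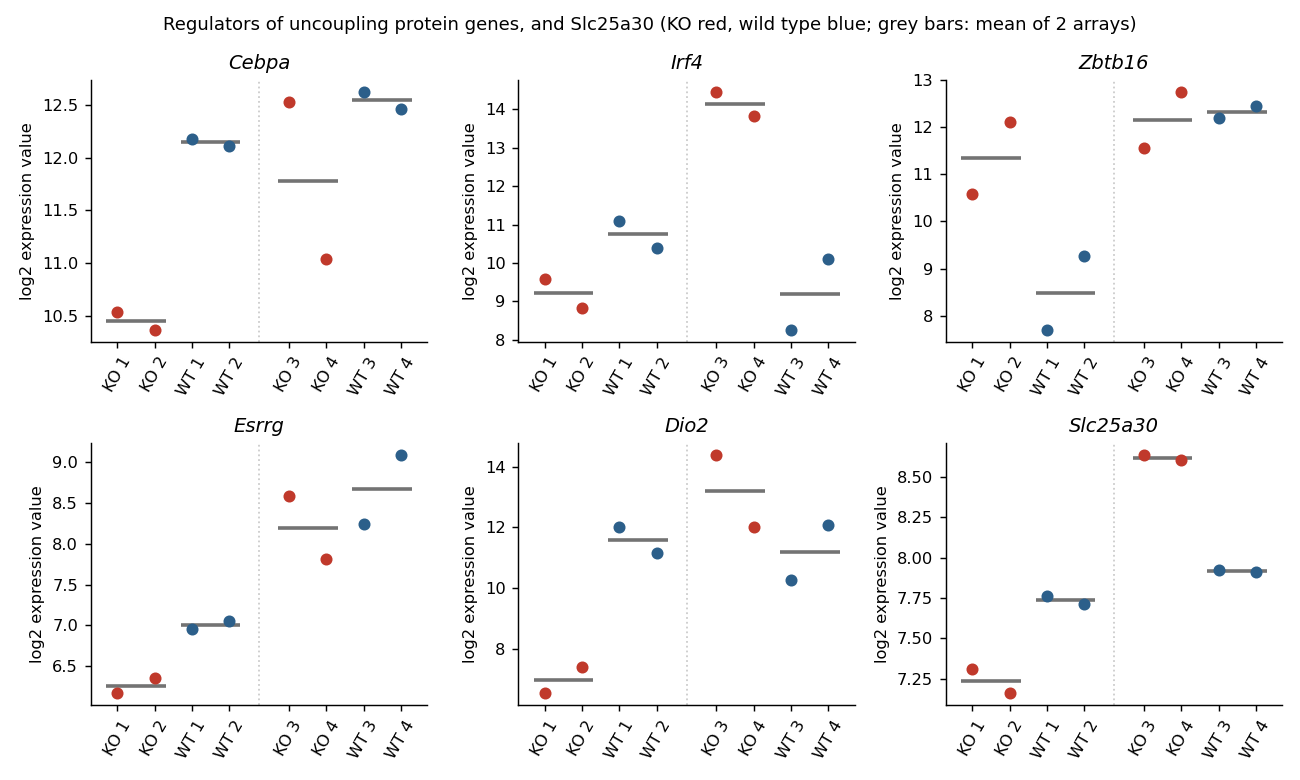
Log2 values of Cebpa, Irf4, Zbtb16, Esrrg, Dio2 and Slc25a30 on each array (KO red, wild type blue), with the mean of each set and genotype as a grey bar. The mean of Cebpa is lower in KO in both sets, whereas the order of the means turns between the sets for Irf4, Dio2 and Slc25a30. For Zbtb16 the KO mean is higher in set 1, and the means lie close together in set 2 (difference -0.16, SE 0.68).

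Fatty acid supply to the uncoupling proteins was described by 21 measured genes of 22. The average was lower in KO for 17 of them, against 14560 of all 30723 genes, and 0 were called, with a median of -0.08. The sets differed: the median was 0.06 in set 1 and -0.28 in set 2, and 6 genes were lower in both, against 5865 of all genes. Acsl5, an acyl-CoA synthetase, had differences of -0.02 in set 1 and -0.85 in set 2 (SE 0.20 each). Lipe, hormone-sensitive lipase, had 0.11 and -0.73 (SE 0.19 each), and Plin1, a droplet coat protein, 0.67 and -1.91 (SE 0.43 each), so that for both the sign turned between the sets. Mgll, monoglyceride lipase, read 12.00 and 12.04 in KO against 11.25 and 11.35 in wild type in set 1, and 12.81 and 12.32 in KO against 14.11 and 13.70 in wild type in set 2. It was the only gene of the 21 that passed between the sets (-2.06, SE 0.28, adjusted p = 0.0468 in limma), where 0.498% of all genes did. With 2 of 13 other settings the call held (range 0.022 to 0.169).

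Genes beside the uncoupling protein genes were compared by their order in the GRCm38.p6 annotation, used here for names and neighbours only. Ucp3 lies next to Ucp2, and 5 of its 6 nearest protein-coding neighbours were measured. Their average differences ran from -0.13 for Coa4 to 0.06 for P4ha3. Within the sets the differences ran from -0.41 in set 1 to 0.17 in set 2, both for C2cd3. Of the 5 neighbours, P4ha3 (3.38 to 3.84) and Dnajb13 (3.20 to 4.47) read near or below the olfactory receptor percentile (3.79 to 4.84 over the arrays). A change could not be seen there. Beside Ucp1, Elmod2 had a difference of -1.67 in set 1 and 1.40 in set 2, and Zfp330 had -0.13 and 1.05. The 4 other measured neighbours, Rnf150, Tbc1d9, Mgat4d and Clgn, had differences between -0.26 and 0.12 within the sets, whereas Ucp1 itself was at the ceiling in both sets. Of these 4, Mgat4d (3.44 to 4.31) and Clgn (3.32 to 4.44) also read near or below the olfactory receptor percentile, where a change could not be seen.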

How the data were processed

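The deposited values are log2 expression values, 1 column per array. They were summarised by the authors with RMA at the level of core exons, using Expression Console of Affymetrix, per the labels. Software versions and the build used are not stated there. After control probe sets were left out, 65956 remained: 31266 carried a single gene in the platform annotation, 1484 more than that and 33206 none. Gene identifiers gave current symbols for 23602, from a RefSeq table of GRCm38.p6. A gene with several probe sets (418 genes) was represented by the one with the highest mean, which left 30723 genes. KO minus wild type was fitted in limma 3.58.1 (R 4.3.3) with a mean for each genotype and set, with Benjamini-Hochberg adjustment over all genes and an adjusted p under 0.05 as the threshold; the fit was tested on simulated data. Values within 0.1 of the array maximum were treated as saturated. The number of arrays limits the precision.

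Members and lists were chosen with earlier results of these data known. Named were the members, all 8 related carriers, up to 4 genes per other list with the smallest unadjusted p, up to 10 genes per set at the ceiling and the 5 genes most like Ucp3 (predicted and olfactory genes passed over). Dbp, Otop1, Lpl and Pnpla2 were named after their values were seen. Alternatives were other set terms, normalizations, filters and probe sets, eBayes with trend, and each array left out. The planned values for Ucp2 were not computed.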

Additional observations from a re-analysis of the deposited data

Results flagged for a closer look

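The Ucp3 value of KO replicate 3, 13.05, lay far from the 3 other KO arrays (10.45 to 10.70), with a gap of 0.905 of the range of the group. The group spans both sets. Gaps past Dixon's 95% critical value are found by chance in about 1 of 20 groups, and here 1 was found in 92 groups of 46 genes. The difference between KO and wild type itself differed between the sets by the limma test for Slc25a30 (1.21), Irf4 (6.51), Mgll (-2.06), Otop1 (-3.41) and Dbp (-2.87). Otop1, a proton channel of brown fat, and Dbp were looked at after their values were seen. Otop1 read 13.47 and 13.59 in KO against 12.44 and 11.72 in wild type in set 1, and 12.96 and 12.53 in KO against 15.09 and 14.30 in wild type in set 2. What else differed between the mice of the sets is not given in the labels.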

How the results depend on the processing

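Ucp3 was not called in the average under any of 16 alternatives. The other set terms, eBayes with trend, the filter and all probe sets leave its average at -0.909 by design, so they do not test its direction. With the other normalizations and with each array left out the direction was kept. With each array left out in turn the average of Ucp3 ran from -1.50 to -0.32, set 1 from -1.70 to -0.30, set 2 from -1.99 to 0.36, and the difference between the sets from -0.98 to 1.36. That last difference was -0.12 after quantile normalization. For Ucp1, at the ceiling, the sign is not meaningful. Quantile normalization gave 0.113 for the average, 0.227 for set 1 and -0.227 for the difference between the sets. Median centring gave -0.0177 for the average and -0.0076 for set 1, and with an array left out the average ran from -0.0104 to 0.0323, set 1 from 0 to 0.0588, set 2 from -0.0502 to 0.0352 and the difference between the sets from -0.0796 to 0.0058. Counts of genes called with an array left out ran from 0 to 3 (average), 0 to 14 (set 1), 0 to 10 (set 2) and 0 to 10 (between the sets). With only genes of mean at least 6 (9746 genes) the counts were 2, 128 and 554 for set 1, set 2 and between the sets. In set 2 quantile normalization and all probe sets each gave 0, and between the sets median centring gave 61, eBayes with trend 4 and all probe sets 38. The causes were not tested. With the replicate number as a block in place of the set, Ucp3 stood at -0.91 (SE 0.38, unadjusted p = 0.0593 and adjusted p = 0.9995 in limma) and Ucp1 at 0.01, and 0 genes were called. Same-numbered arrays deviated together from their group means, with correlations of 0.70, 0.47, 0.48 and 0.61 for numbers 1 to 4. With the set difference removed these were 0.11 for numbers 1 and 2 and -0.09 for numbers 3 and 4. The 2 numbers of a set share a value there by construction. With the set difference left in, 2 of 4 KO arrays were closest to the wild type array of their own number. The numbers are thus not shown to pair the mice.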
